A study of Mus musculus with 24 samples.

Results

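A set of 9 basic helix-loop-helix (bHLH) genes of the proneural, Hes and related families were examined in neural retinas and eye cups of mice with elevated PRDM13. The 9 genes, out of 56748 in the deposited table, were taken by gene name: the proneural genes Atoh7, Neurog2 and Neurod4, the Notch effectors Hes1, Hes5 and Hey1, and Bhlhe22, Bhlhe23 and Olig2. PRDM13-OE mice carried 1 copy of a cassette at Rosa26 on C57BL/6J, in which the ubiquitous EF-1α promoter drove rtTA and the TRE3G promoter drove HA-tagged human PRDM13. They were compared with wildtype littermates. Mice of each genotype were left without doxycycline (dox) or were given dox at 2 mg/ml with 10% sucrose for 72 hours, starting at P28. Untreated mice are recorded without sucrose. Between dox and untreated mice, effects of dox and of sucrose therefore cannot be told apart. Each of these 4 groups held 3 mice, both sexes were used, and 1 neural retina library and 1 eye cup library came from each of the 12 mice. Polyadenylated RNA was sequenced in all 24 libraries. The insert was expressed under ubiquitous control, so dox induction was not restricted to 1 retinal cell type, and transcripts of the human insert were not analysed here.

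bHLH factors bind E-box DNA and decide which neurons a retinal progenitor makes. When a Notch receptor meets its ligand on a neighbouring cell, its intracellular part is released, joins RBPJ on DNA and switches on Hes and Hey genes, whose products repress proneural genes and keep cells as progenitors or glia. In the adult retina Hes1 and Hes5 are associated with Müller glia, while Neurod4, Bhlhe22 and Bhlhe23 belong to interneuron programs. PRDM13 is a zinc finger repressor of the amacrine lineage that acts beside bHLH activators such as Ptf1a in the developing nervous system.

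Promoter sequences are shown for the 3 members that were lower in PRDM13-OE dox retinas and have a RefSeq promoter entry. Entries were matched for 6 of the 9 members. The stretches are the 250 bases before the transcription start in GRCm38.p6, written 5′ to 3′ on the gene's own strand. Capitals mark matches to the RBPJ core TGGGAA, the E-box CANNTG or the N-box CACNAG, a Hes-type site, each searched on both strands. No capital stretch overlaps another.
Hes5, plus strand, chr4:154960673-154960922: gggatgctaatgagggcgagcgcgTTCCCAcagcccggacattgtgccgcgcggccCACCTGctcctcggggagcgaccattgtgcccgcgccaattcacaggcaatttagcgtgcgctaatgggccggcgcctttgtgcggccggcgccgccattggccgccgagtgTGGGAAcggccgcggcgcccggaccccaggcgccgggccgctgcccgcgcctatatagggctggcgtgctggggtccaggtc
Bhlhe23, minus strand, chr2:180776901-180777150: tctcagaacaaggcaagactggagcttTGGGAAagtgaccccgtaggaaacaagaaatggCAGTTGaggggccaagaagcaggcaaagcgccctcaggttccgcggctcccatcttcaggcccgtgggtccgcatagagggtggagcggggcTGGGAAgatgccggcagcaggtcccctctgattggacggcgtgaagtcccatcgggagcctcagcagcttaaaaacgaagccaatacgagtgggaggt
Neurod4, minus strand, chr10:130280255-130280504: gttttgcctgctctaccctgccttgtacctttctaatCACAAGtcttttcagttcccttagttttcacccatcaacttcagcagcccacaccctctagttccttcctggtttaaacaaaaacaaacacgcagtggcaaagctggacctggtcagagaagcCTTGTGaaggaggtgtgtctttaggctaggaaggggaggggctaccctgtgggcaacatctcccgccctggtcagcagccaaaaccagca
The Hes5 window held 2 RBPJ cores, beginning at −226 and −82 from the start, and 1 E-box at −194. The Bhlhe23 window held 2 RBPJ cores at −223 and −98 and 1 E-box at −190. The Neurod4 window held neither, but held 2 N-boxes at −213 and −90. Among the 32851 windows of this length in the table, 21.6% held an RBPJ core, 2.77% held 2 or more, 66.2% held an E-box and 36.7% held an N-box. The Atoh7 window held 1 RBPJ core and 3 E-boxes, and those of Neurog2 and Olig2 held no match. A match describes letters in a window and does not show that a factor bound there.

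The libraries held 15825059 to 24908314 counts each. In the retina, 2 wildtype dox libraries stood apart. Summed lens crystallin levels, which mark lens tissue, were 11234 and 4726 CPM (counts per 1000000 counts of a library, scaled with TMM factors) in wildtype dox retinas 1 and 2, and 119 in retina 3. They were 3.56 to 28.8 CPM in PRDM13-OE dox retinas, and all 14 crystallins tested were lower there. The Xist transcript exceeded 1000 counts in 3 of 3 PRDM13-OE dox retinas and in 2 of 3 wildtype dox retinas. Among untreated retinas it did so in 2 of 3 PRDM13-OE and in 1 of 3 wildtype retinas. Values without wildtype dox retinas 1 and 2 are given for the comparison of both dox groups.

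Within untreated wildtype retinas, Neurod4 was the most abundant member by FPKM, which corrects for gene length and allows genes to be compared. Its level was 56.7 ± 7.68 FPKM (mean ± SD, n = 3 here and throughout). Bhlhe23, needed for rod bipolar cell maturation, followed at 22.0 ± 0.810, and Bhlhe22, a factor of amacrine and cone bipolar subtypes, at 18.2 ± 0.930. The Notch effectors came next, with Hes1 at 10.6 ± 1.05, Hey1 at 6.46 ± 0.806 and Hes5 at 4.22 ± 1.03 FPKM. Neurog2 was at 1.75 ± 0.187 FPKM and Atoh7, the ganglion cell determinant, at 0.243 ± 0.219. No 2 neighbours in this order overlapped in untreated wildtype retinas. Olig2, a factor of progenitors and oligodendrocytes, had 0 counts in all 12 retinas, where 3 counts would have been 0.0139 CPM.

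In PRDM13-OE dox retinas the order of levels differed at 1 step and lost its separation at another. Bhlhe22, at 19.7 ± 1.81 FPKM, stood above Bhlhe23, at 15.5 ± 1.91. Hes5 fell to 1.60 ± 0.543 FPKM and overlapped Neurog2, at 1.41 ± 0.134. Neurod4 remained the most abundant at 42.6 ± 0.522 FPKM. The neighbours that overlapped in untreated PRDM13-OE retinas were Bhlhe23 and Bhlhe22, at 21.3 ± 0.122 and 19.8 ± 1.87 FPKM, and none overlapped in wildtype dox retinas.

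**Figure D1:**
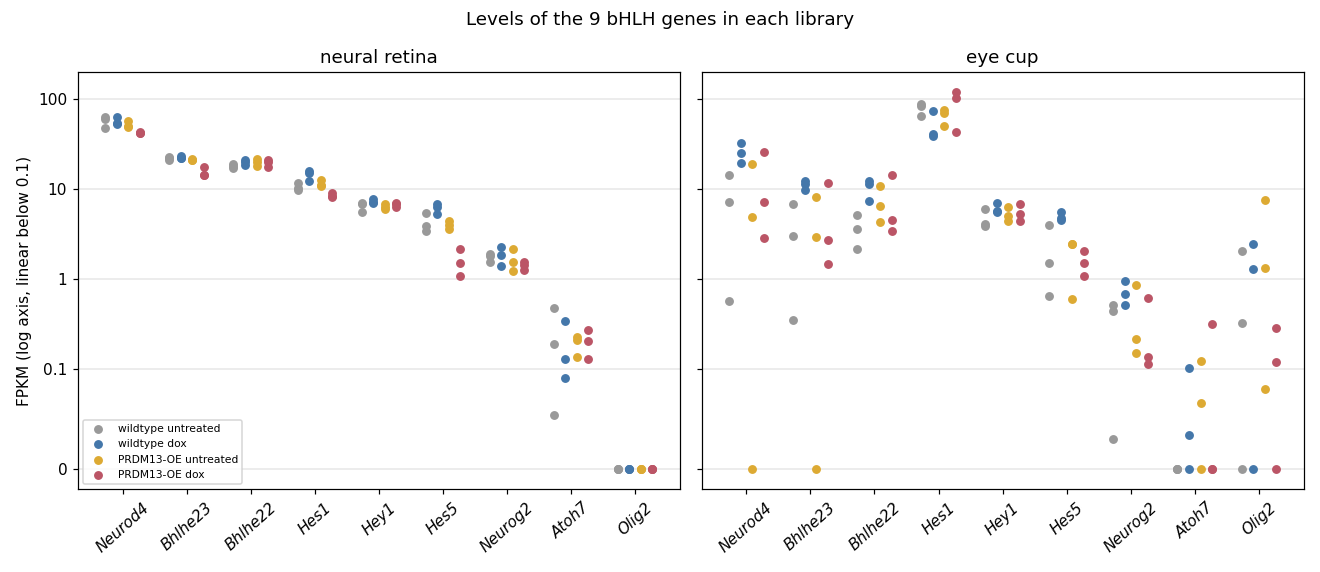
Level of the 9 bHLH genes in FPKM (log axis, linear below 0.1), with 1 point per library, coloured by genotype and dox, for neural retina and eye cup. In the retina Neurod4 lies highest and Olig2 is at 0 in all 12 libraries, while in the eye cups Hes1 lies highest.

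PRDM13-OE dox retinas were compared with wildtype dox retinas to ask what elevated PRDM13 changed when both genotypes had received dox. Hes5, Hes1, Bhlhe23 and Neurod4 were lower in PRDM13-OE dox retinas, and no member was higher. Hes5 had the largest change of the members, with a log2-fold change of −1.90. Hey1, Bhlhe22, Neurog2 and Atoh7 did not pass the test. Of the 8 members tested, 4 passed in the lower direction at an adjusted p under 0.05, against 7.51% of the 20560 genes tested, and 0 in the higher direction, against 5.01%. The members' median log2-fold change was −0.35, against 0.0056 over all genes tested. Hes5 alone also passed a log2-fold change of 1, the study's cutoff for a DEG, which 1.50% of genes did in the lower direction. In bulk tissue, fewer cells of a type and less RNA per cell cannot be told apart.

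Hes5 (ENSMUSG00000048001, chr4:155045380-155046828 in GRCm39, plus strand) encodes a repressor that Notch signalling induces directly. Its levels were 1.65, 2.31 and 3.29 CPM in PRDM13-OE dox retinas 1 to 3. They were 10.1, 7.79 and 9.29 CPM in wildtype dox retinas, 5.21, 5.90 and 6.58 in untreated PRDM13-OE retinas, and 7.93, 5.90 and 5.00 in untreated wildtype retinas. All 3 PRDM13-OE dox values were below the other 9, with 28, 42 and 61 counts behind them. How many of all genes show such a separation was not counted, here or for the members below. Against wildtype dox, Hes5 had a log2-fold change of −1.90 with a standard error (SE) of 0.22 (adjusted p = 0.000169 in edgeR). The opposite-strand gene Gm20421 overlaps Hes5 and had 38, 45 and 37 counts in PRDM13-OE dox and 21, 38 and 15 in wildtype dox retinas, near the Hes5 counts of the former group. The sources do not settle whether counting used strand, so reads of the pair may not be separable.

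Hes1 (ENSMUSG00000022528, chr16:29883202-29886614, plus strand) is the other main Notch-induced repressor and is expressed in progenitors, glia and vessels. Its levels were 18.4, 18.8 and 20.6 CPM in PRDM13-OE dox retinas and 35.2, 26.8 and 32.6 CPM in wildtype dox retinas. Untreated PRDM13-OE retinas were at 24.3, 24.4 and 28.4 CPM, and untreated wildtype retinas at 22.5, 26.6 and 21.7. The PRDM13-OE dox group again lay below the other 9 retinas without overlap. Its log2-fold change against wildtype dox was −0.72 (SE 0.10, adjusted p = 0.000746 in edgeR). The mean of wildtype retinas was 31.6 ± 4.28 CPM with dox and 23.6 ± 2.66 CPM without.

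Hey1 (ENSMUSG00000040289, chr3:8728419-8732316, minus strand) is a Notch effector best known in the vasculature. Its levels were 22.8, 24.5 and 25.4 CPM in PRDM13-OE dox retinas and 25.0, 24.9 and 27.4 CPM in wildtype dox retinas. The groups overlapped and the log2-fold change was −0.09 (SE 0.08, adjusted p = 0.499 in edgeR).

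**Figure D2:**
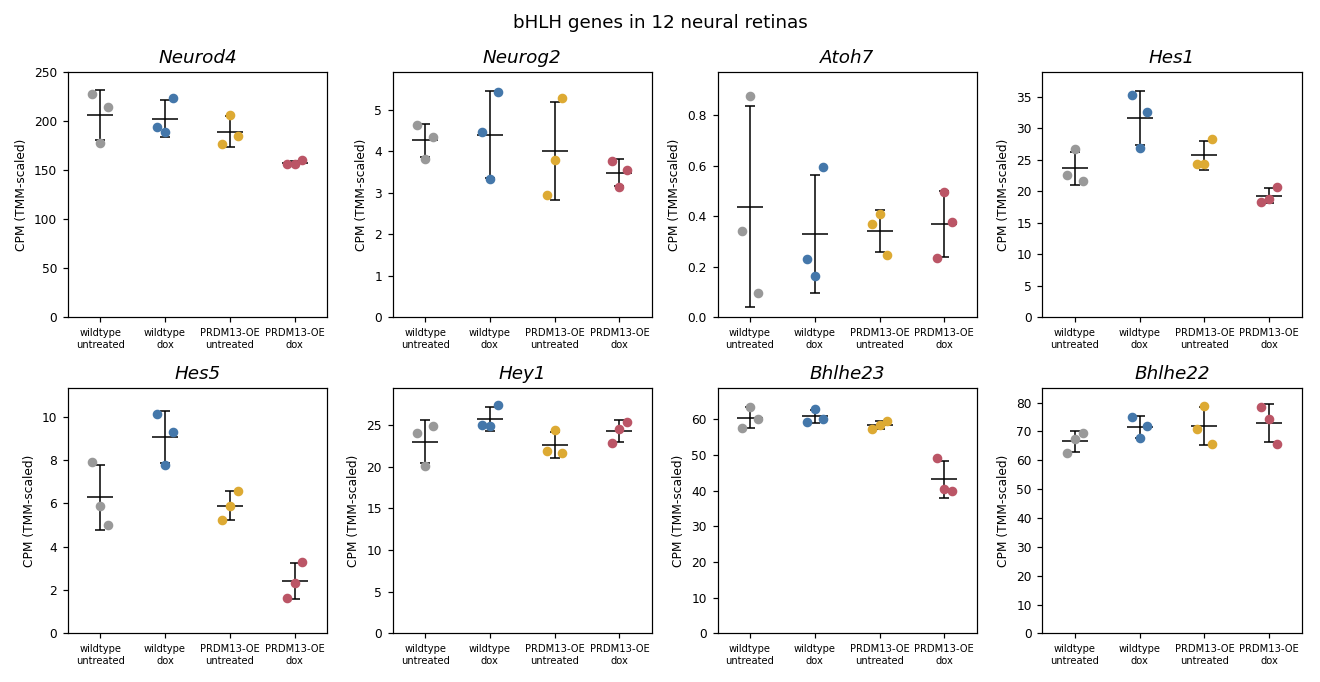
Level of the 8 detected members in each of the 12 neural retinas, in CPM, by genotype and dox, with 1 point per retina, a horizontal line for the mean and bars for the SD (n = 3). The 3 PRDM13-OE dox retinas lie below the other 9 for Hes5, Hes1, Bhlhe23 and Neurod4. The share of all genes with this pattern was not counted.

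Neurod4 (ENSMUSG00000048015, chr10:130104021-130116109, minus strand) is a proneural factor of amacrine and bipolar development. Its 3 PRDM13-OE dox retinas were close together, at 156, 156 and 160 CPM. Wildtype dox retinas were at 194, 189 and 224 CPM, untreated PRDM13-OE retinas at 177, 207 and 185, and untreated wildtype retinas at 227, 178 and 215. No other retina reached down to the PRDM13-OE dox values, and the log2-fold change against wildtype dox was −0.37 (SE 0.07, adjusted p = 0.0036 in edgeR). Neurog2 (ENSMUSG00000027967, chr3:127426784-127429280, plus strand), a progenitor proneural factor, was at 3.77, 3.13 and 3.56 CPM against 4.46, 3.33 and 5.42 in wildtype dox retinas. These ranges overlapped (change of −0.34, SE 0.21, adjusted p = 0.341 in edgeR). Atoh7 (ENSMUSG00000036816, chr10:62935430-62937058, plus strand) had 4, 9 and 7 counts in PRDM13-OE dox retinas and 4, 3 and 10 in wildtype dox retinas. At this depth no difference in Atoh7 was detectable.

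Of the related pair Bhlhe23 and Bhlhe22, only Bhlhe23 passed the test, and the difference between both changes was not tested. Bhlhe23 (ENSMUSG00000045493, chr2:180416174-180418693, minus strand) was at 49.2, 40.5 and 40.0 CPM in PRDM13-OE dox retinas and at 59.3, 62.9 and 60.1 CPM in wildtype dox retinas. The 6 untreated retinas lay between 57.3 and 63.6 CPM, also above all 3 PRDM13-OE dox retinas. The log2-fold change against wildtype dox was −0.50 (SE 0.08, adjusted p = 0.00173 in edgeR). The same-strand gene Gm14343, which overlaps Bhlhe23, had 0 to 10 counts per retina. Bhlhe22 (ENSMUSG00000025128, chr3:18108338-18111681, plus strand) was at 78.5, 74.3 and 65.8 CPM against 75.1, 67.6 and 71.9, with overlap (log2-fold change 0.02, SE 0.07, adjusted p = 0.891 in edgeR). Olig2 (ENSMUSG00000039830, chr16:91022345-91025565, plus strand) had too few counts to be tested in the retina.

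All 4 members passed whichever of the 6 libraries was left out, with Hes5 between −2.19 and −1.71, Hes1 between −0.83 and −0.63, Bhlhe23 between −0.61 and −0.44 and Neurod4 between −0.42 and −0.28 on the log2 scale. Without wildtype dox retinas 1 and 2 the values were −1.94, −0.77, −0.48 and −0.51 in the same order and all 4 passed. That fit sets 3 PRDM13-OE dox retinas against 1 wildtype dox retina, which is assumed to vary like the PRDM13-OE dox group, so it has no spread of its own for wildtype. All 4 also passed without wildtype dox retina 3, the dox retina with at most 1 Xist count, at −1.88, −0.69, −0.50 and −0.28. With the lens crystallin level as a covariate over the 12 retinas, Bhlhe23 no longer passed (−0.48, adjusted p = 0.0586 in edgeR), while the other 3 did. In that fit 2.49% of all genes passed in either direction.

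Markers of many retinal cell types also differed between both dox groups, where 7.51% of all genes tested were lower and 5.01% higher. Of 7 Müller glia markers 2 were higher and 3 were lower, and their summed levels, 6268 to 6658 CPM in PRDM13-OE dox and 6071 to 6557 in wildtype dox retinas, overlapped. Of 7 bipolar markers 1 was higher and 3 were lower, and the sums of 1086 to 1204 CPM lay below those of 1307 to 1388 CPM in wildtype dox retinas. Of 7 endothelial markers 5 were lower, with sums of 146 to 168 CPM against 314 to 326. Amacrine markers were lower for 2 of 8, with sums of 1230 to 1258 CPM against 1362 to 1443. Summed levels also did not overlap for cone markers (5 of 6 lower, 510 to 555 against 1124 to 1157 CPM), horizontal cell markers (2 of 4 lower, 108 to 115 against 134 to 154 CPM) and ganglion cell markers (2 of 8 lower, 1162 to 1225 against 1233 to 1443 CPM). Of 7 rod markers 5 were lower, with sums of 45913 to 52385 CPM against 63070 to 64775. The 5 blood markers were all lower, at sums of 0.706 to 1.19 CPM against 31.0 to 77.9. The part of these shifts in the members' changes was not tested.

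PRDM13-OE dox retinas were also compared with untreated PRDM13-OE retinas, which carry the same insert. This comparison uses the same 3 PRDM13-OE dox libraries as the one above, so the results of both are not independent. The 4 members lower against wildtype dox were lower here too. Of the 20603 genes tested, 2.96% passed in the lower direction. Hes5 had a log2-fold change of −1.28 (SE 0.24, adjusted p = 0.00701 in edgeR), and Bhlhe23 of −0.44 (SE 0.08, adjusted p = 0.00788 in edgeR). Hes1, at −0.42 (SE 0.09, adjusted p = 0.0220 in edgeR), and Neurod4, at −0.27 (SE 0.06, adjusted p = 0.0314 in edgeR), were nearer the threshold. Hey1 (0.10), Bhlhe22 (0.02), Neurog2 (−0.20) and Atoh7 (0.11) did not pass. 

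Hes5 passed against untreated PRDM13-OE whichever library was left out, between −1.57 and −1.08, but the other 3 depended on single libraries. Without PRDM13-OE dox retina 1, Hes1 was −0.39 (adjusted p = 0.111 in edgeR) and Neurod4 −0.26 (0.136). Without PRDM13-OE dox retina 2, Hes1 was −0.40 (adjusted p = 0.112 in edgeR), Neurod4 −0.26 (0.150) and Bhlhe23 −0.39 (0.0656). Without PRDM13-OE dox retina 3, Neurod4 was −0.28 (adjusted p = 0.106 in edgeR) and Bhlhe23 −0.38 (0.0588). Leaving out untreated PRDM13-OE retina 2 took Neurod4 to −0.20 (adjusted p = 0.0949 in edgeR), and leaving out retina 3 of that group took Hes1 to −0.35 (0.0663). Each of these fits held 5 libraries, and these values kept their direction. Why the calls were lost was not tested. With library size in place of TMM factors, Hes5 (−1.22) and Bhlhe23 (−0.37) passed and Hes1 (−0.36, adjusted p = 0.0575 in edgeR) and Neurod4 (−0.21, 0.0933) did not. With the lens crystallin covariate Hes1 did not pass (0.0505), and with all 12 retinas in 1 fit Neurod4 did not (−0.27, adjusted p = 0.0980 in edgeR).

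Neither dox, given with sucrose, in wildtype mice nor the untreated insert changed a member past the threshold. In wildtype dox against untreated wildtype retinas 1 gene of 20631 (0.00485%) passed, and it was no member. In edgeR, 2 members had an unadjusted p under 0.05, Hes1 at 0.42 (SE 0.11, unadjusted p = 0.00308, adjusted p = 0.277) and Hes5 at 0.53 (SE 0.18, unadjusted p = 0.0148, adjusted p = 0.406). Both values are positive, and DESeq2 called 0 members. The other 6 tested members were between −0.39 (Atoh7) and 0.16 (Hey1). In untreated PRDM13-OE against untreated wildtype retinas 1 gene of 20668 (0.00484%) passed, 0 members passed in edgeR or DESeq2, and 0 had an unadjusted p under 0.05. Log2-fold changes there were −0.08 (SE 0.20) for Hes5 and 0.13 (SE 0.11) for Hes1.

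**Figure D3:**
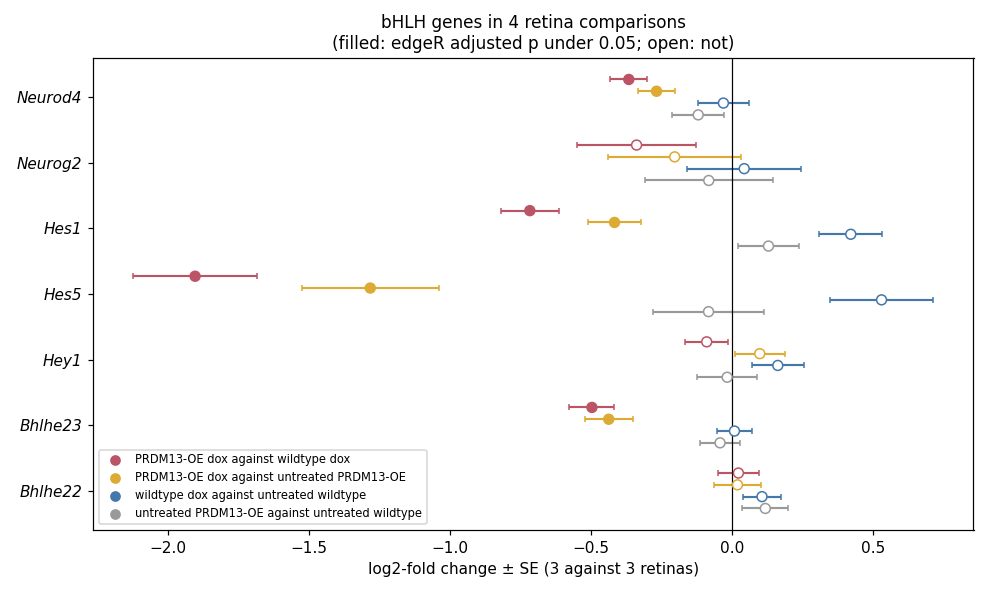
Log2-fold change of 7 members in the 4 retina comparisons of 3 against 3 libraries, with SE as bars and filled points for an adjusted p under 0.05 in edgeR (Atoh7 and Olig2 are not drawn). Hes5 lies at −1.90 against wildtype dox and at −1.28 against untreated PRDM13-OE, and no point is filled in wildtype dox against untreated wildtype or between untreated genotypes.

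The interaction of genotype and dox asked whether dox changed a member differently in PRDM13-OE than in wildtype retinas. In the retina 3 members passed, all with the dox change lower in PRDM13-OE, against 1.83% of 22538 genes in that direction. The difference was −1.81 for Hes5 (SE 0.31, adjusted p = 0.00224 in edgeR) and −0.83 for Hes1 (SE 0.15, adjusted p = 0.00414 in edgeR). Both passed with each of the 12 libraries left out. For both, the wildtype dox change was positive and the PRDM13-OE change negative, so the interaction exceeds either change alone. Bhlhe23 had a difference of −0.44 (SE 0.11, adjusted p = 0.0290 in edgeR). That call was lost without any 1 of 7 libraries, at adjusted p = 0.0944 and 0.0825 without PRDM13-OE dox retinas 2 and 3, 0.0615 without untreated PRDM13-OE retina 3, 0.0548 and 0.0871 without wildtype dox retinas 1 and 2, and 0.0830 and 0.0693 without untreated wildtype retinas 1 and 3, where the difference was between −0.45 and −0.40. It was also lost with library size scaling (−0.37, adjusted p = 0.0882 in edgeR) and with the lens crystallin covariate (−0.44, adjusted p = 0.0771 in edgeR). Neurod4 did not pass, at −0.23 (SE 0.12, adjusted p = 0.398 in edgeR).

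The genes around the Hes family in the Notch pathway were taken from lists of receptors and ligands, of processing and nuclear components, and of other bHLH genes. In PRDM13-OE dox against wildtype dox retinas, 5 of 9 receptors and ligands passed in the lower direction and none in the higher, against 7.51% and 5.01% of all genes tested. Their median log2-fold change was −0.54, against 0.0056 over all genes. Dll1, a Notch ligand, had the largest change of these, at 5.41, 9.17 and 9.06 CPM in PRDM13-OE dox retinas against 19.8, 18.5 and 19.1 in wildtype dox retinas. The 6 untreated retinas lay between 15.8 and 18.0 CPM, so all 3 PRDM13-OE dox retinas were lower than the other 9. The log2-fold change was −1.28 (SE 0.16, adjusted p = 0.000311 in edgeR). Jag1, Notch1, Notch2 and Notch3, named after their values were seen, were at −0.77, −0.54, −0.62 and −0.65, and Notch4, Dll3, Dll4 and Jag2 did not pass. With the lens crystallin covariate, Dll1 (−1.21) and Jag1 (−0.70) passed and the 3 Notch receptors did not, with Notch1 at −0.48, Notch2 at −0.18 and Notch3 at −0.77 in a fit where 2.49% of all genes passed. With 1 wildtype dox retina left, after leaving out retinas 1 and 2, Notch1 (−0.40) and Notch2 (−0.35) did not pass (adjusted p = 0.101 and 0.0853 in edgeR), while Dll1 (−1.28), Notch3 (−0.87) and Jag1 (−0.56) did.

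Of 17 processing and nuclear components of the pathway, 4 were lower and 1 was higher, against 7.51% and 5.01% of all genes tested. With the lens crystallin covariate Mfng alone of these 5 passed, while Nrarp was at −0.92 (−0.84 without the covariate), Adam17 at −0.55 (−0.45), Adam10 at −0.18 (−0.18) and Rfng at 0.33 (0.29). Adam10 also did not pass with DESeq2 (−0.18, adjusted p = 0.0734) or with library size scaling (−0.09, adjusted p = 0.287 in edgeR), where Numb passed as higher (0.25, 0.0325). Mfng, a glycosyltransferase that modifies Notch receptors, was at 5.00, 4.56 and 5.39 CPM in PRDM13-OE dox retinas and at 13.1, 11.4 and 10.8 CPM in wildtype dox retinas. The 6 untreated retinas were at 10.2 to 13.6 CPM, with no overlap. Its log2-fold change was −1.24 (SE 0.14, adjusted p = 0.000103 in edgeR), and it passed with the lens crystallin covariate (−0.98) and was at −1.12 against wildtype dox retina 3 alone. Rbpj, the DNA-binding partner of the Notch intracellular domain, was at −0.20 (SE 0.07, adjusted p = 0.0786 in edgeR). Against untreated PRDM13-OE retinas, Dll1 was at −1.07 (adjusted p = 0.00200 in edgeR) and Mfng at −1.26 (adjusted p = 0.000255 in edgeR), and in wildtype dox against untreated wildtype 0 genes of any of these lists passed.

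Other bHLH genes were read against the same shares of all genes, 7.51% lower and 5.01% higher. Of 8 tested proneural and related genes 0 passed in edgeR in PRDM13-OE dox against wildtype dox retinas, 0 of them at an unadjusted p under 0.05. Of 8 other Hes and Hey class genes 1 was higher, Hes6 at 0.23 (adjusted p = 0.0427 in edgeR), and of 7 E proteins and Id factors 1 was lower, Id2 at −0.40 (adjusted p = 0.0153 in edgeR), both named after their values were seen. Neither passed with the lens crystallin covariate, where Hes6 was at 0.34 and Id2 at −0.27 (adjusted p = 0.333 and 0.636 in edgeR), or against wildtype dox retina 3 alone, where they were at 0.25 and −0.29 (0.189 and 0.212). With DESeq2 Hes6 did not pass (0.23, adjusted p = 0.103). With library size scaling Id4 passed as higher (0.28, adjusted p = 0.0242 in edgeR), in a fit where 15.5% of all genes passed. Of 3 tested genes in a list of 5 PRDM13 partners 1 was higher (Prdm13) and 1 was lower, Prdm8 at −0.43 (SE 0.07, adjusted p = 0.00304 in edgeR). Prdm8 did not pass with the lens crystallin covariate (−0.44, adjusted p = 0.0844 in edgeR). The other tested gene, Ebf3, did not pass with DESeq2 (−0.24, adjusted p = 0.0543) and was at −0.41 against wildtype dox retina 3 alone. Prdm8 and Ebf3 were named after their values were seen. Counts at mouse Prdm13 were 57.2 ± 3.74 CPM in PRDM13-OE dox and 49.0 ± 1.74 CPM in wildtype dox retinas. The log2-fold change was 0.22 (SE 0.07, adjusted p = 0.0482 in edgeR). That call was lost with the lens crystallin covariate (0.22, SE 0.13), and the change was 0.27 against wildtype dox retina 3 alone. Reads were mapped to the mouse genome, and whether reads of the human insert were counted at mouse Prdm13 was not tested. After the same length of dox, qPCR in the study found no change in this mouse gene. Ptf1a, with 0 to 2 counts per retina, and Tlx3, with 0 to 1, could not be tested.

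**Figure D4:**
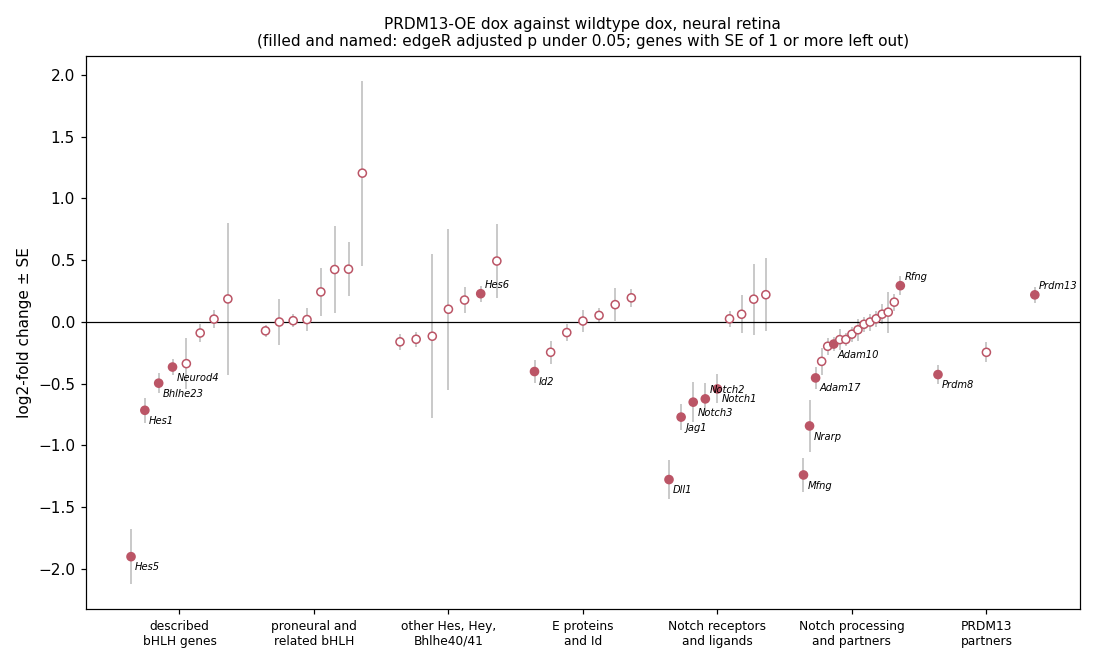
Log2-fold change in PRDM13-OE dox against wildtype dox retinas for the members and the pathway lists, 1 point per tested gene, with SE as bars and filled, named points for an adjusted p under 0.05 in edgeR (genes with an SE of 1 or more are not drawn). Among the pathway genes Dll1 (−1.28) and Mfng (−1.24) lie lowest, and 5 of 9 receptors and ligands are filled on the lower side.

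The genes whose levels ran most like each member over the 12 retinas were found by Pearson correlation of log2(CPM + 0.5) over 14853 genes. The points share libraries, genotype and dox groups, so the values describe likeness only. Hes5 was nearest to Styx (r = 0.979), Dll1 (0.947) and E2f3 (0.939), and Hes1 to Ercc6l2 (0.897), Hes5 (0.876) and Fhad1 (0.865). Neurod4 was nearest to Rimkla (0.964), Ankrd40 and Brsk2, and Bhlhe23 to Fntb (0.972), Sdc3 and A730036I17Rik. Hey1 was nearest to Fam222b (0.881), Bhlhe22 to Btbd2 (0.862) and Neurog2 to Slc52a3 (0.872), each below the top values of Hes5, Hes1, Neurod4 and Bhlhe23.

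The eye cup is what remains when the neural retina is lifted out, with retinal pigment epithelium and outer coats, and its 12 libraries kept neural retina RNA in unequal amounts. Summed rod markers were between 2676 and 42094 CPM. Relative to the retina of the same mouse, eye cup rod markers were at 4.88% to 72.4% in FPKM, with a median of 33.2%. Neurod4 was at 0% to 60.1% (median 20.0%) and was below the rod percentage in 12 of 12 mice. Bhlhe23 (median 23.7%) and Neurog2 (median 25.8%) were below it in 9 and 10 mice. Bhlhe22 had a median of 33.2%, equal to that of the rod markers at this precision. Hes5 (median 72.5%), Hey1 (79.7%) and Hes1 (590%) were above the rod percentage in all 12 mice, and Hes1 was at 241% or more in each. Hes5 was nearly tied with the rod markers in PRDM13-OE dox mouse 3 (70.4% against 70.3%) and untreated PRDM13-OE mouse 3 (13.7% against 12.6%). It was at 100% and 134% in PRDM13-OE dox mice 1 and 2, whose retinal Hes5 was low. By FPKM, Hes1 was the most abundant member of every eye cup group, with means between 51.0 ± 19.7 in wildtype dox and 88.2 ± 39.8 in PRDM13-OE dox, and its range overlapped that of no other member within a group. Neurod4 came second in each group, with means between 7.42 ± 6.95 in untreated wildtype and 25.7 ± 6.51 in wildtype dox. In the untreated wildtype eye cups, Hey1 (4.65 ± 1.19), Bhlhe22 (3.66 ± 1.49), Bhlhe23 (3.38 ± 3.22), Hes5 (2.06 ± 1.74) and Olig2 (0.788 ± 1.10) followed, each overlapping the next.

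**Figure D5:**
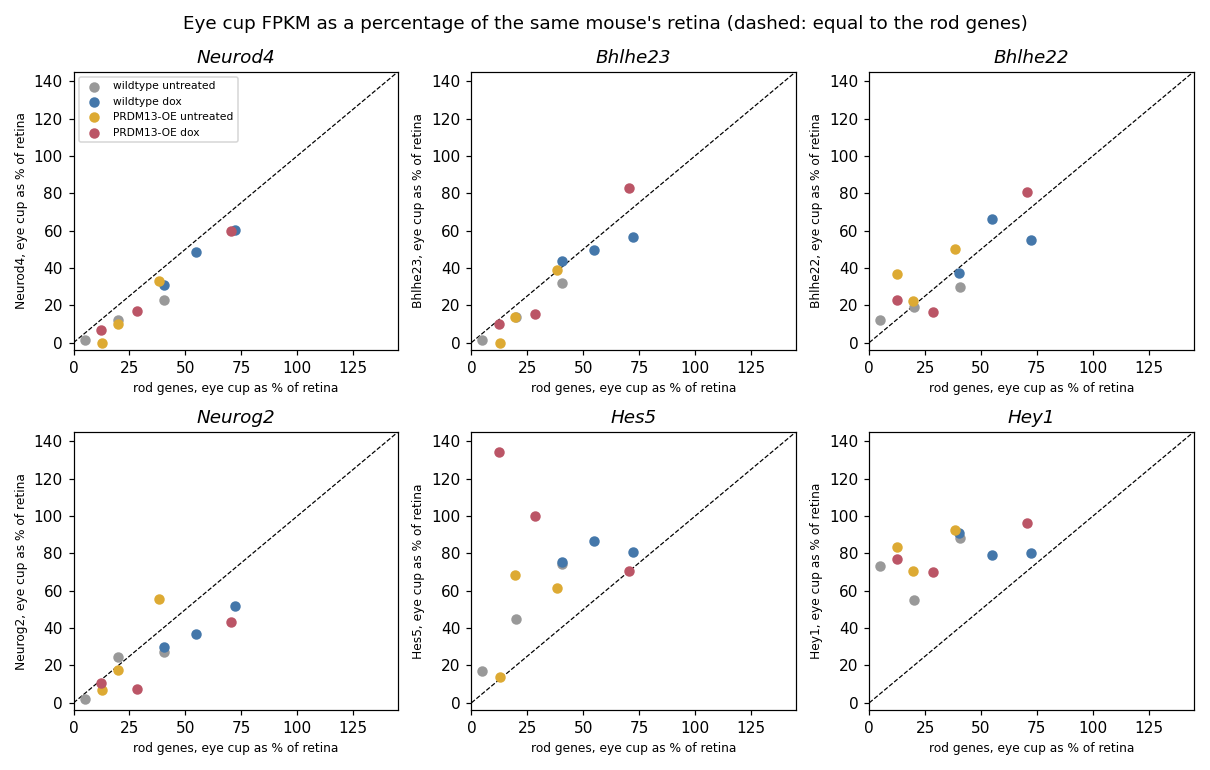
Eye cup FPKM of 6 members as a percentage of the FPKM in the retina of the same mouse (y axis), against the same percentage for the summed rod markers (x axis), with 1 point per mouse, coloured by genotype and dox, and a dashed line where both are equal. Neurod4 lies below the line in all 12 mice. Hes5 and Hey1 lie above it in all 12, with Hes5 nearly on the line in some.

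Across the 12 eye cups, levels of most members ran with the rod markers. Pearson correlations on the log2 scale, between points that share genotype and dox groups and retinal RNA, were 0.898 for Neurog2, 0.882 for Bhlhe23, 0.849 for Neurod4 and 0.818 for Bhlhe22. Hes5 (0.765), Hey1 (0.690) and Atoh7 (0.464, on 0 to 9 counts) were lower, Hes1 ran the other way (−0.796) and Olig2 stood near 0 (0.0740). The eye cup of untreated PRDM13-OE mouse 3 had 0 counts of Neurod4 and of Bhlhe23, but 321 of Bhlhe22. Olig2, absent from the counts of all retinas, had 14, 5 and 0 counts in PRDM13-OE dox eye cups, 63, 285 and 3 in untreated PRDM13-OE, 58, 114 and 0 in wildtype dox and 17, 75 and 0 in untreated wildtype. Its correlation with summed oligodendrocyte markers, which ran from 161 to 5289 CPM, was 0.867.

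In untreated wildtype mice the retina and the eye cup of the same mice were compared, and 7 of 9 members passed, 5 higher and 2 lower in the retina, against 29.0% and 32.5% of 21979 genes. Hes1 was lower in the retina, at a log2-fold change of −2.90 (SE 0.17, adjusted p = 1.09e-05 in edgeR). Its eye cups were at 118, 171 and 161 CPM and its retinas at 21.7 to 26.6. Higher in the retina were Neurod4 at 2.92 (SE 0.86, adjusted p = 0.0202 in edgeR), Bhlhe23 at 2.68 (SE 0.74, 0.0150), Neurog2 at 2.33 (SE 0.63, 0.0136) and Bhlhe22 at 2.30 (SE 0.28, 0.00034). Atoh7 had 7, 16 and 2 counts in these retinas and 0 in the eye cups, at least 8.69-fold higher in the retina when 3 counts over the group are taken as the floor, and at least 4.47-fold without retina 2. Olig2 had 0 counts in the retinas and was at least 29.4-fold higher in the eye cups by the same floor, a bound that was 7.32-fold without eye cup 2, which held 75 of the 92 counts, and 46.7-fold without eye cup 3, which held 0. Hes5 (1.01, adjusted p = 0.155 in edgeR) and Hey1 (0.47, adjusted p = 0.0768 in edgeR) did not pass. With the mouse as a block, Atoh7 no longer passed (adjusted p = 0.0612 in edgeR) and Hes5 did (1.27, adjusted p = 0.0498).

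Calls in the tissue comparison rested in part on single libraries. Without the eye cup of mouse 3, Neurod4 (2.93, adjusted p = 0.0794 in edgeR), Bhlhe23 (2.63, 0.0668) and Atoh7 (0.0586) did not pass, and without the retina of mouse 1 Atoh7 did not (0.0568). Olig2 did not pass without the eye cup of mouse 1 (adjusted p = 0.0529 in edgeR) or of mouse 2 (0.0734), or without retina 1 (0.0795), 2 (0.0863) or 3 (0.0824). Hes1, Bhlhe22 and Neurog2 passed in all 6. Without the eye cup of mouse 1 Hes5 and Hey1 passed as well.

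Among eye cups, PRDM13-OE dox against wildtype dox gave no member past the threshold in edgeR, where 4 of 21758 genes passed (0.0184%). Hes5 was at 1.39, 2.67 and 2.05 CPM in PRDM13-OE dox eye cups and at 7.54, 6.17 and 6.21 in wildtype dox eye cups, without overlap. Its untreated eye cups were at 3.12, 2.93 and 0.745 CPM in PRDM13-OE and at 4.90, 0.859 and 1.94 in wildtype mice, so here the wildtype dox group stood above the other 9. The log2-fold change was −1.67 (SE 0.32, edgeR unadjusted p = 0.000988, adjusted p = 0.597). It was the 1 member with an unadjusted p under 0.05, and DESeq2 called it (−1.69, DESeq2 adjusted p = 0.000347), along with 0.676% of all genes. Summed rod markers were at 4773, 10782 and 31858 CPM in PRDM13-OE dox and at 22036, 32001 and 42094 in wildtype dox eye cups. With their summed level as a covariate over the 12 eye cups, Hes5 was at −0.96 (adjusted p = 0.878 in edgeR).

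The other members overlapped or varied widely within groups in this comparison. Hes1 was at 195, 230 and 86.3 CPM in PRDM13-OE dox and at 78.4, 81.1 and 143 in wildtype dox eye cups (log2-fold change 0.79, SE 0.41). Neurod4 was at 22.3, 9.16 and 84.6 CPM against 107, 83.3 and 61.7 (−1.07, SE 0.72), and at 0.58 with the rod marker covariate. PRDM13-OE dox eye cup 3, with the highest Neurod4, Bhlhe23 and Bhlhe22 levels of its group, decided these results. Without it, Neurog2 (−2.50), Bhlhe23 (−2.43), Neurod4 (−2.38), Hes5 (−1.69) and Bhlhe22 (−1.41) passed, with edgeR adjusted p-values of 0.0373, 0.0136, 0.0228, 0.0321 and 0.0292. In that fit 10.4% of the 21237 genes tested passed, and both remaining PRDM13-OE dox eye cups had lower rod marker sums (4773 and 10782 CPM) than all 3 wildtype dox eye cups, whose part in these calls was not tested.

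The remaining eye cup comparisons gave 0 members past the threshold in edgeR. In PRDM13-OE dox against untreated PRDM13-OE eye cups 3 of 21604 genes passed (0.0139%). Olig2 alone of the members had an unadjusted p under 0.05 there (edgeR unadjusted p = 0.0299, adjusted p = 0.975). In wildtype dox against untreated wildtype eye cups 0 of 21799 genes passed, and Bhlhe22 was nearest, at 1.54 (SE 0.34, adjusted p = 0.0673 in edgeR). Its levels were 37.9, 40.7 and 23.7 CPM with dox and 15.5, 7.00 and 11.5 without, with no overlap, and DESeq2 called it (adjusted p = 0.000986), along with 19.0% of all genes. Summed rod markers did not overlap either, at 22036 to 42094 CPM with dox and 2676 to 21006 without, and with their level as a covariate Bhlhe22 was at 0.69 (adjusted p = 0.907 in edgeR). Without wildtype dox eye cup 3, Bhlhe22 (1.76) and Hes1 (−0.93) passed, and without untreated wildtype eye cup 1, Bhlhe22 (1.87) and Hes5 (2.20) did, where 6.59% and 13.5% of all genes tested passed. Untreated genotypes and the interaction gave 0 calls among 21588 and 23837 genes.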

How the data were processed

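RNA from the neural retina and eye cup of 12 mice was measured in 24 libraries, 3 per group in 8 groups given by the labels, with 15825059 to 24908314 counts each. Replicates are separate mice. The authors deposited raw read counts and FPKM values per gene, made by Novogene, and the labels name HISAT2, CASAVA and GRCm39. The counting tool and annotation release are not given in the sources used here. The authors' comparison columns (60 columns, fold changes and p-values) were not used, and the insert was not analysed here.

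The quasi-likelihood test of edgeR 4.0.16 (R 4.3.3, TMM, without robust fitting) was run on the counts. A gene entered a comparison when its libraries held 10 counts or more in all, p-values were adjusted over every gene in the fit by Benjamini-Hochberg, and the threshold was 0.05. A DEG also needed a log2-fold change beyond 1. Deposited FPKM values were used to compare levels between genes. The floor for genes at 0 was 3 counts, which covers counting error only. Alternatives were DESeq2 1.42.0, library size scaling, no filter, filterByExpr, robust fitting, a replicate block, all 12 libraries of a tissue, covariates for lens crystallins (retina) or rod markers (eye cup) and leaving out each library. Leaving out wildtype dox retinas 1 and 2 together, and leaving out single libraries from the fold bounds, were chosen after seeing the data. The edgeR fits were tested on simulated data.

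The members and gene lists were chosen with earlier results of these data known. Named pathway genes were the DEGs in PRDM13-OE dox against wildtype dox retinas, with Ptf1a, Prdm13, Tlx3 and Rbpj, and for each member with at least 10 counts in every retina the 3 most correlated genes were found. Another gene of this rule is not reported here. Others were named after their values were seen. Untreated wildtype retinas and eye cups came from the same mice, and same-numbered deviations correlated at 0.0974, 0.127 and 0.112. Promoters came from RefSeq (GRCm38.p6) and were matched by symbol. Figures were drawn with matplotlib 3.10.9.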

Additional observations from a re-analysis of the deposited data

Results flagged for a closer look

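The effect of dox in the retina differed between genotypes, by the interaction test in edgeR, for 3 of the 9 bHLH genes. Olig2 could not be tested. The difference (PRDM13-OE minus wildtype, log2) was −1.81 for Hes5, −0.83 for Hes1 and −0.44 for Bhlhe23. In this lower direction 1.83% of 22538 genes passed. The Bhlhe23 call was lost in several fits that left out a single library, with library size scaling and with the lens crystallin covariate. In the Notch pathway lists the effect of dox also differed for Dll1 (−1.28), Mfng (−1.29), Notch1 (−0.82) and Jag1 (−0.73). In the list of PRDM13 partners it differed for Prdm8 (−0.43), a PRDM family repressor. No outlier test was run, since every group held 3 libraries.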

How the results depend on the processing

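In PRDM13-OE dox against wildtype dox retinas, 69 of 70 values under the alternatives other than leaving out 1 library kept their side of the threshold, and so did 48 of 48 with 1 library left out. Uncalled values differed in sign in 3 and 5 of these. The exception was Bhlhe23 with the lens crystallin covariate. Against untreated PRDM13-OE retinas, 4 members passed, but 2 with library size scaling and 1 to 4 with 1 library left out. In wildtype dox against untreated wildtype retinas, 1 member (Hes1) passed without a filter, as did 2.07% of all genes. In PRDM13-OE dox against wildtype dox eye cups, 1 member passed with DESeq2 and 0 to 5 with 1 library left out. In wildtype dox against untreated wildtype eye cups, 1 member passed with each of DESeq2, library size scaling and no filter (19.0%, 6.18% and 5.52% of all genes), and 0 to 2 with 1 library left out. Between tissues, 4 to 8 members passed with 1 library left out. The cause was not tested. No called value changed sign.

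Library size in place of TMM moved the median of all genes by 0.114 in PRDM13-OE dox against untreated PRDM13-OE eye cups, by 0.179 in wildtype dox against untreated wildtype eye cups and by 0.297 between tissues, on the log2 scale. With CPM per kilobase in place of FPKM, 58 of 72 group levels moved by less than 1 SD and 14 by more.

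Replicate numbers within a tissue name different mice and did not pair them. With the number as a replicate block, 4 members passed in each of both PRDM13-OE dox retina comparisons, 3 in the retina interaction, 0 in every other comparison within a tissue and 7 between tissues, the same numbers as without it. Hes5 was at −1.92 against wildtype dox and −1.32 against untreated PRDM13-OE retinas. Same-numbered mice deviated together at a correlation over 0.1 in every pair in 0 comparisons within a tissue, and in 0 of them did every mouse correlate best with its own number.

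Low counts limit Atoh7, Neurog2 and Olig2, and also Hes5, with 28 to 61 counts in PRDM13-OE dox retinas. Eye cups differed in retained retina, and the lens crystallin and Xist levels differed between the dox groups. Xist also differed between the untreated groups.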
